A study of Mus musculus with 9 samples.

Results

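The DNA clamp PCNA, the RFC complex that loads it, the PCNA-associated factor PCLAF, and DNA ligase 1 were described in B.END3 cells before and after photodynamic treatment. The members are 8 genes, chosen by name from the 54532 genes of the expression table: Pclaf, Pcna, Rfc1, Rfc2, Rfc3, Rfc4, Rfc5, and Lig1. The choice was made with earlier results of these data known. Pclaf was selected on its own values, because it lay slightly above the control at 10 J/cm2 and below it at 20 J/cm2, so its values are given as a description and carry no test. The other 7 genes were tested within a model of all expressed genes.

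B.END3 is a mouse cell line, labelled as brain microvessel endothelial cells of strain C57BL/6, although the growth protocol calls the cells rat. RNA sequencing covered 9 libraries of monolayers, 3 in each of 3 groups. Ctrl cells were untreated, and Ep1 and Ep2 cells took up the photosensitizer porfimer sodium (300 µg/mL, 90 min) before 635 nm laser light at 100 mW/cm2, to a dose of 10 J/cm2 in Ep1 and 20 J/cm2 in Ep2. No library had the drug alone or the light alone, so these cannot be told apart, and the time from irradiation to lysis is not given in the sources used here. Nothing states that the 3 libraries of a group came from separate cultures, and the p-values then measure only the spread between these libraries, which may be technical.

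The replicative DNA polymerase on the lagging strand stays on its template because PCNA, a ring of identical subunits, encircles the DNA and tethers it. The RFC complex, built of the large subunit Rfc1 and the small subunits Rfc2 to Rfc5, opens the ring with ATP and closes it at primer ends. Lig1 binds PCNA and seals the nicks between Okazaki fragments. Pclaf, also known as PAF15, is a small disordered protein that passes through the ring and limits access of the translesion polymerases. These genes are most highly expressed in dividing cells around S phase, and several are known targets of E2F factors.

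In these cells, the clamp and its partners were lower at the higher light dose. All 7 tested members fell in Ep2 compared to Ctrl, to between 49.6% (Rfc2) and 77.9% (Rfc1) of the Ctrl mean, and Pclaf stood at 47.2%. At the lower dose, none of the 7 passed the test, and Pclaf stood at 118% of the Ctrl mean. Expression is given in FPKM, that is fragments scaled to gene length and to the total of the library, and all differences are differences of log2(FPKM + 1), which understate the change of low genes.

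The libraries held between 16240688 and 19509225 fragments on genes, and the mitochondrial share was 1.90 to 2.08% in Ctrl and Ep1 and 2.04 to 2.49% in Ep2. The endothelial label was poorly matched by its markers: 9 of 12 lay under 1 FPKM in every library, Erg and Emcn among them at 0, and the summed level was 9.45 to 9.67 FPKM in Ctrl, 9.43 to 10.8 in Ep1, and 13.0 to 14.1 in Ep2. Flt1, a VEGF receptor, was the highest of them at 6.66 to 11.7 FPKM and made up most of the summed level. The epithelial keratins Krt8 (562 to 714 FPKM) and Krt18 (231 to 332 FPKM) were abundant, and the summed level of 6 epithelial markers was 859 to 902 FPKM in Ctrl, 798 to 860 in Ep1, and 900.1 to 1049 in Ep2. The other epithelial markers were low. Epcam was at 0.607 to 2.03 FPKM, and 3 of the 6, Cdh1, Krt5, and Krt14, were under 1 FPKM in every library. The 6 fibroblast markers, 4 of them under 1 FPKM, summed to 41.7 to 43.8 FPKM in Ctrl, 37.1 to 42.1 in Ep1, and 41.2 to 49.6 in Ep2. Most of that sum was Col3a1, at 30.8 to 41.2 FPKM. All 6 mural and all 6 macrophage markers were under 1 FPKM. The summed endothelial level, which is mostly Flt1, was higher in each Ep2 library than in any other library while the clamp genes were lower. The part of cell identity in the results was not tested.

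The members lie on 5 chromosomes, and all positions refer to GRCm38. Pclaf (ENSMUSG00000040204) is at chr9:65890237-65903266 on the plus strand, and Pcna (ENSMUSG00000027342) at chr2:132249162-132253314 on the minus strand. Of the loader genes, 4 are on chromosome 5, namely Rfc1 (ENSMUSG00000029191, chr5:65261850-65335670, minus), Rfc2 (ENSMUSG00000023104, chr5:134581366-134601805, plus), Rfc3 (ENSMUSG00000033970, chr5:151642756-151651242, minus), and Rfc5 (ENSMUSG00000029363, chr5:117378103-117389047, minus). Rfc4 (ENSMUSG00000022881) is at chr16:23113943-23127737 on the minus strand, and Lig1 (ENSMUSG00000056394) at chr7:13277283-13311433 on the plus strand.

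Since these genes moved together in Ep2, their start regions were read for 3 kinds of short motif known from cell cycle promoters. RefSeq start regions (build GRCm38.p6, 250 bases before to 50 after the start) were available for 7 of the 8 members, all but Rfc2. The regions printed here run from 140 bases before to 10 bases after the start of Pclaf, Pcna, and Rfc3, that is the selected gene, the clamp, and the loader gene with E2F words. E2F words and CCAAT boxes of either strand are in capitals.
Pclaf, chr9:65890183-65890332, plus strand: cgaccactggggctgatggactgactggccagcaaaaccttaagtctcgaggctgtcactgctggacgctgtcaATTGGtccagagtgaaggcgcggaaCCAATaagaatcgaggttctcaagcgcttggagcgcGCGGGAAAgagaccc
Pcna, chr2:132253171-132253320, minus strand: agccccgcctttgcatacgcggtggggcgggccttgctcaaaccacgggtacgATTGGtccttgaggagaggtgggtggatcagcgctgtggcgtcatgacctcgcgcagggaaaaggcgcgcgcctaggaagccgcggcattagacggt
Rfc3, chr5:151651199-151651348, minus strand: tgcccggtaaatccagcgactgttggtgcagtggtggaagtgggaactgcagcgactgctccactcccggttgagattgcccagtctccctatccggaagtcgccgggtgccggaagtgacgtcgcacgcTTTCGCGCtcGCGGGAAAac

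An E2F word (TTTCCCGC, TTTCGCGC, TTTGCCGC, or TTTGGCGC, on either strand) was present in 3 of the 9 start regions of the 7 members, 1 each of Pclaf, Rfc3, and Lig1, compared to 2.26% of 32851 start regions of the same length. In Pclaf it spans the start itself, from position -5 to 3, where the first transcribed base is 1 and no base is 0. In Rfc3 there are 2 words, one from -10 to -3 and the other from 1 to 8. In Lig1 the word lies from 27 to 34 of 1 of its 3 annotated starts, beyond the stretch printed for the others. The CCAAT box was present in 4 of the 9 regions, those of Pclaf, Pcna, Rfc1, and Rfc3, in a genome where 37.4% of the start regions hold one. Pclaf has a pair of CCAAT boxes in opposite orientation, from -66 to -62 and from -41 to -37, and Pcna has 1, from -87 to -83. A CHR word (TTTGAA or TTCGAA) was present in 1 of the 9 regions, that of Rfc3, compared to 19.2% of all start regions. These matches describe letters only, and none is shown to be a bound site.

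The clamp itself was the most abundant member in every library. Pcna was at 241.3, 245.9, and 251.5 FPKM in the Ctrl libraries, at 260.0, 263.1, and 259.3 FPKM in Ep1, and at 168.1, 166.1, and 162.7 FPKM in Ep2. The 3 groups did not overlap, with Ep1 slightly above Ctrl and Ep2 far below both. The mean fell from 246 ± 5.09 FPKM in Ctrl (SD, n = 3) to 166 ± 2.73 FPKM in Ep2, a log2 difference of -0.57 with a 95% confidence interval of -0.64 to -0.49 (limma, adjusted p = 3.86e-06). Against Ep1, whose mean was 261 ± 2.02 FPKM, Pcna was lower by -0.65 on the log2 scale (limma, adjusted p = 4.42e-06). In Ep1 compared to Ctrl, the difference of 0.08 (95% confidence interval 0.0076 to 0.16) did not pass after adjustment (limma, adjusted p = 0.136).

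Pclaf followed the same order of groups with wider steps. It was at 36.03, 36.52, and 37.88 FPKM in Ctrl, at 41.06, 44.98, and 44.25 FPKM in Ep1, and at 17.45, 17.55, and 17.13 FPKM in Ep2. All Ep1 libraries were above all Ctrl libraries, and all Ep2 libraries were below both, which is the pattern that chose the gene. The log2 difference was 0.23 in Ep1 and -1.04 in Ep2 compared to Ctrl, and -1.27 in Ep2 compared to Ep1, or 2.5-fold lower in mean FPKM. The Ep1 difference was 0.13 when each library was corrected for transcript length and GC content.

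**Figure D1:**
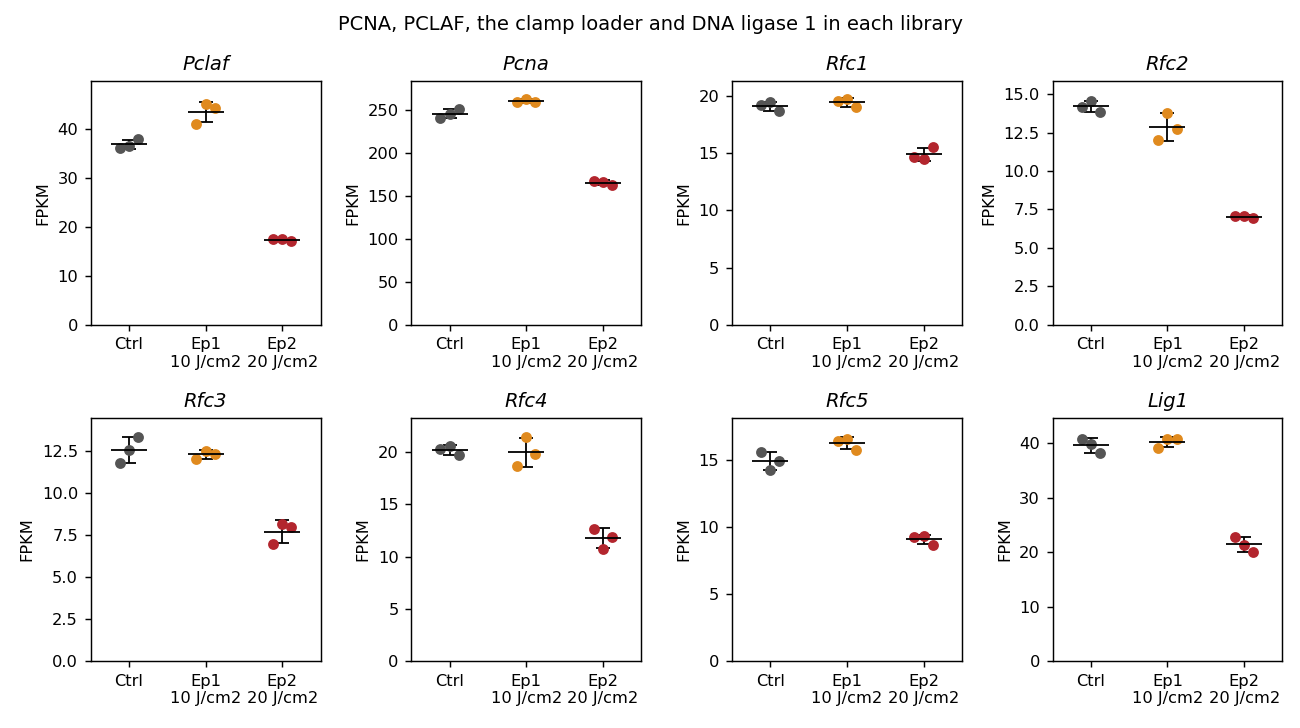
FPKM (y axis, from 0) of each of the 8 genes in the 3 Ctrl, 3 Ep1, and 3 Ep2 libraries (points), with the group mean (long line) and SD (error bar). In every panel the 3 Ep2 points lie below all Ctrl and Ep1 points, while Ep1 lies wholly above Ctrl for Pclaf, Pcna, and Rfc5 and wholly below it for Rfc2. The share of all genes without overlap of Ep1 and Ctrl was not counted.

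The FPKM of Pclaf was compared to that of Pcna within each library, so that the total of the library does not enter. The level of this ratio depends on the lengths used, 4813 bases for Pclaf and 2400 for Pcna. Their canonical transcripts have 2188 and 1518 bases. The relative change of the ratio between groups does not depend on length. The ratio of their FPKM values was 0.149 to 0.151 in Ctrl, 0.158 to 0.171 in Ep1, and 0.104 to 0.106 in Ep2. The 3 ranges did not overlap, so that Pclaf was lower relative to the clamp in Ep2 and higher in Ep1, and since Pclaf was selected on its values, this ratio has no test. On the scale of gene length given with the data, Pclaf was the third most abundant member in Ctrl and Ep2, behind Lig1, and the second in Ep1.

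**Figure D2:**
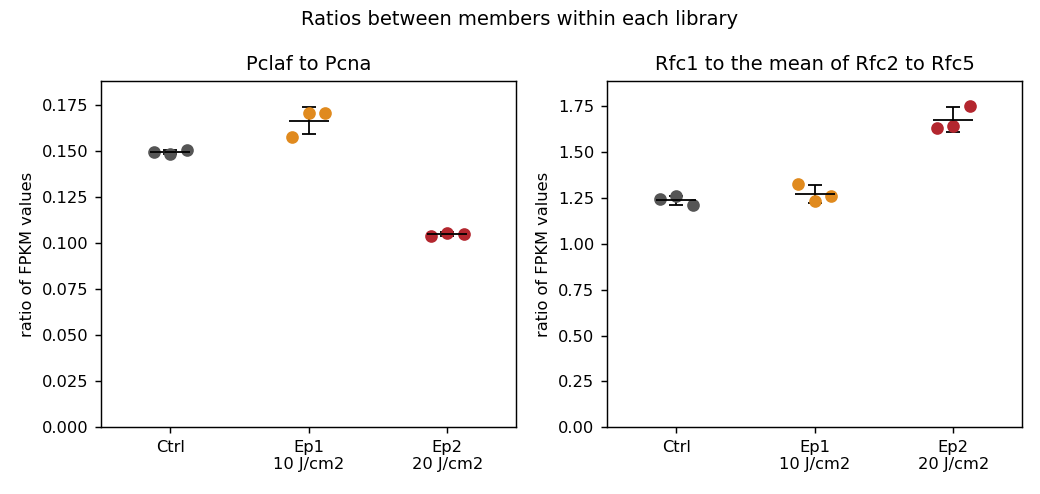
Ratio of FPKM values (y axis, from 0) in each library (points), with group mean and SD, for Pclaf to Pcna on the left and for Rfc1 to the mean of Rfc2 to Rfc5 on the right. The Pclaf ratio is lowest in the 3 Ep2 libraries (0.104 to 0.106), where the Rfc1 ratio is highest (1.63 to 1.75).

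Of the loader subunits, the large subunit Rfc1 changed least. Rfc1, which holds the complex to the clamp and to DNA, was at 19.20, 19.49, and 18.70 FPKM in Ctrl, at 19.56, 19.79, and 19.06 FPKM in Ep1, and at 14.64, 14.51, and 15.55 FPKM in Ep2. The Ctrl and Ep1 libraries overlapped, and the Ep2 libraries lay below both. The difference of Ep2 from Ctrl was -0.34 on the log2 scale (95% confidence interval -0.44 to -0.25, limma adjusted p = 0.000149).

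Among the small subunits, which form the ATPase collar together with Rfc1, Rfc2 changed most. Rfc2 was at 14.17, 14.57, and 13.84 FPKM in Ctrl, at 11.99, 13.80, and 12.72 FPKM in Ep1, and at 7.083, 7.089, and 6.927 FPKM in Ep2. It was the sole tested member whose mean stepped down at each dose without overlap of the libraries, although the step in Ep1 (-0.14, 95% confidence interval -0.26 to -0.017) did not pass after adjustment (limma, adjusted p = 0.124). The lowest Ctrl library (13.84 FPKM) and the highest Ep1 library (13.80 FPKM) nearly met. In Ep2 the log2 difference from Ctrl was -0.92 (95% confidence interval -1.04 to -0.80, limma adjusted p = 3.4e-06), and the mean of 7.03 ± 0.0921 FPKM (SD, n = 3) was 49.6% of the Ctrl mean.

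Rfc4 and Rfc5 stand between these. Rfc4 was at 20.30, 20.54, and 19.67 FPKM in Ctrl, 18.62, 21.39, and 19.82 FPKM in Ep1, and 12.63, 10.74, and 11.90 FPKM in Ep2, with a log2 difference of -0.73 (limma, adjusted p = 2.57e-05) in Ep2 compared to Ctrl. Rfc5 was at 15.56, 14.26, and 14.90 FPKM in Ctrl, 16.42, 16.56, and 15.70 FPKM in Ep1, and 9.236, 9.307, and 8.680 FPKM in Ep2. The difference of Rfc5 in Ep1 from Ctrl, 0.12 (95% confidence interval 0.0067 to 0.22), did not pass after adjustment (limma, adjusted p = 0.148). In Ep2, Rfc5 was lower by -0.66 (limma, adjusted p = 9.68e-06). Rfc3 was at 11.82, 12.56, and 13.35 FPKM in Ctrl, 12.04, 12.53, and 12.35 FPKM in Ep1, and 6.959, 8.200, and 8.005 FPKM in Ep2, a log2 difference of -0.64 (limma, adjusted p = 4.89e-05). The Ctrl libraries of Rfc3 spread more widely than those of Ep1, and both lay above all Ep2 libraries.

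Within a library, the loader subunits therefore did not keep one proportion. The FPKM of Rfc1 was 1.21 to 1.26 times the mean of Rfc2 to Rfc5 in Ctrl, 1.23 to 1.33 times in Ep1, and 1.63 to 1.75 times in Ep2. The Ep2 range lay above the other ranges, which overlapped. The level of this ratio depends on the gene lengths used and, through the mean of several genes, so does its change. On canonical transcript length, the Ctrl mean of Rfc1 was 23.5 FPKM, below that of Rfc3 at 34.5. The 95% confidence interval of the Rfc1 change in Ep2 did not meet that of any small subunit, of which the nearest was Rfc3 with -0.79 to -0.49. The difference between subunits was itself not tested.

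Lig1, which joins Okazaki fragments, fell about as far as the small subunits. It was at 40.78, 39.98, and 38.17 FPKM in Ctrl, at 39.17, 40.76, and 40.74 FPKM in Ep1, and at 22.85, 21.44, and 20.15 FPKM in Ep2. Ctrl and Ep1 overlapped almost fully, with a difference of 0.02 (95% confidence interval -0.09 to 0.14, limma adjusted p = 0.826). The difference of Ep2 from Ctrl was -0.86 (95% confidence interval -0.97 to -0.74, limma adjusted p = 4.03e-06), and the ratio of Lig1 to Pcna went from 0.152 to 0.169 in Ctrl to 0.124 to 0.136 in Ep2.

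The counts of members were read against the background of all 11727 genes tested. Since the members were chosen with earlier results of these data known, the contrast with all genes is a description. In Ep2 compared to Ctrl, 7 of 7 tested members fell, where 29.3% of all genes were lower and 23.9% higher at an adjusted p-value below 0.05 (limma). With the further condition of a log2 fold change beyond 0.6, 5 of the 7 were lower (all but Pcna and Rfc1), compared to 5.87% of all genes. The median log2 difference of the 7 members was -0.66, and that of all genes -0.029. The libraries of Ep2 lay wholly below those of Ctrl for all 7, compared to 32.7% of all genes. The balance of all called genes turned with scaling, since 2800 were higher and 3436 lower, but 3311 and 2971 with median centring, and 3561 and 3485 with voom on recovered fragments.

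Ep2 was also compared to Ep1, where both groups had the drug and light and only the dose differed. Here 7 of 7 tested members were lower, where 25.2% of all genes were lower and 18.8% higher (limma, adjusted p-value below 0.05). The differences ran from -0.37 for Rfc1 (limma, adjusted p = 0.000156) to -0.88 for Lig1 (limma, adjusted p = 5.46e-06), with a median of -0.72 compared to -0.015 for all genes. Past the fold condition, 6 of the 7 were lower, all but Rfc1, compared to 3.97% of all genes. All 7 were without overlap in this direction, compared to 30.3% of all genes. The balance of all called genes depended on scaling, since 2206 were higher and 2950 lower (42.8% higher), but with median centring 2974 were higher and 2383 lower (55.5% higher). The 7 members stayed lower under that centring.

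In Ep1 compared to Ctrl, 0 of 7 members passed in either direction, where 6.32% of all genes were higher and 4.97% lower (limma, adjusted p-value below 0.05). Before adjustment, 3 of the 7 had a limma p below 0.05, Pcna and Rfc5 on the higher side and Rfc2 on the lower, and the smallest was 0.0293. At that threshold 14.9% of all genes were higher and 14.6% lower. The Ep1 and Ctrl libraries did not overlap for Pcna, Rfc2, Rfc5, and Pclaf, the last of which was selected on this pattern. The share of all genes without such overlap was not counted, so nothing is read from it. The median log2 difference was 0.02 compared to -0.0093 for all genes, with 4 positive and 3 negative. The calls over all genes in Ep1 were unstable, with 741 higher and 583 lower, but 237 and 155 without Ctrl replicate 1, 115 and 78 without Ctrl replicate 2, 217 and 161, 461 and 381, and 111 and 80 without Ep1 replicates 1, 2, and 3, 1183 and 1000 without Ep2 replicate 1, and 925 and 1068 with voom on recovered fragments. The intervals leave room for small differences, as in Rfc1 (-0.07 to 0.12), Rfc3 (-0.17 to 0.12), and Rfc4 (-0.17 to 0.13). Ep1 and Ep2 were compared to the same Ctrl libraries, so the columns of differences are not independent of each other.

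**Figure D3:**
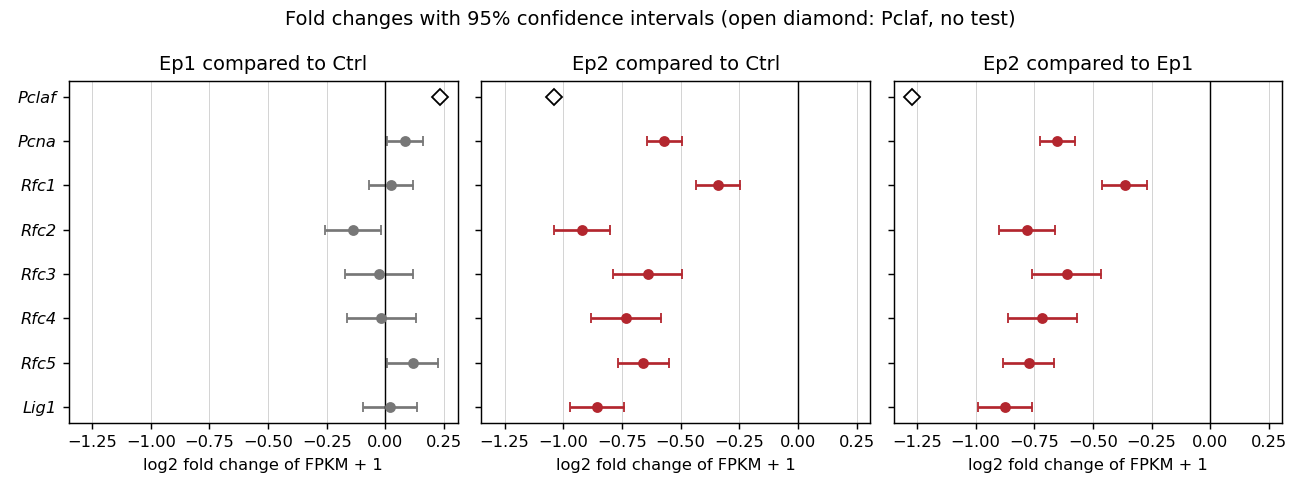
Log2 fold change of FPKM + 1 (x axis) of each gene in the 3 comparisons, with the 95% confidence interval of the limma model as a bar; red marks an adjusted p-value below 0.05, grey marks the others, and the open diamond marks Pclaf, which has no test. The 7 tested genes lie left of 0 in both Ep2 panels, Rfc1 nearest to it at -0.34 and -0.37, and on both sides of 0 in the Ep1 panel.

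The order of the levels was read per length. In Ctrl, Pcna was followed by Lig1, Pclaf, Rfc4, Rfc1, Rfc5, Rfc2, and Rfc3, and of these neighbours only Rfc5 and Rfc2 overlapped between libraries. In Ep1 the neighbours Rfc4 and Rfc1 and the neighbours Rfc2 and Rfc3 overlapped. In Ep2 Rfc1 had moved above Rfc4 without overlap, and Rfc2 shared the lowest place with Rfc3. The order depended on which length was used, since the length in the table exceeds the canonical transcript for 7 of the 8 genes. On canonical transcript length, the Ctrl mean was 389 FPKM for Pcna, 81.0 for Pclaf, 50.2 for Lig1, and 34.5 for Rfc3, which places Pclaf above Lig1 and Rfc3 above the other loader genes. The ratio of FPKM between groups for one gene does not depend on its length.

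Other reads could enter these values, because the use of strand in counting is not given in the sources used here. Pclaf lies wholly within Trip4 on the opposite strand, a gene at 2.28 to 3.11 FPKM. Rfc4 shares 194 bases with Eif4a2 (31.0 to 36.3 FPKM) and Rfc5 shares 499 bases with Wsb2 (25.9 to 39.2 FPKM), both on the opposite strand and both higher than the member itself. Rfc2 shares 1784 bases with Lat2 (1.05 to 2.67 FPKM) and Lig1 shares 1439 bases with Zswim9 (0.528 to 0.928 FPKM), which are low. Pcna has the processed copies Pcna-ps2, at 1.53 to 4.88 FPKM, and Pcna-ps1, listed at 0. The smallest number of fragments behind a member was 303 to 369 per Ep2 library for Rfc4, and Pcna had 6485 to 7691.

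The pathway around the clamp was described by lists of related genes, counted against the same background, that is 29.3% of all genes lower and 23.9% higher in Ep2 compared to Ctrl, and 4.97% lower and 6.32% higher in Ep1. The other clamps and clamp loaders include the RAD9-RAD1-HUS1 checkpoint clamp and the alternative loaders built on Chtf18, Atad5, and Rad17, each of which uses the small RFC subunits. Of 8 tested genes, 5 were lower in Ep2 compared to Ctrl and 0 higher, with a median of -0.251. Chtf18, the large subunit of the cohesion loader, went from 9.85 to 2.47 FPKM in the mean (-1.64, limma adjusted p = 6.09e-06), a wider difference than that of any RFC subunit. Its partner Dscc1 fell by 0.88 (limma, adjusted p = 0.000123), and Rad1 of the checkpoint clamp by 0.29 (limma, adjusted p = 0.00175). With the stricter filter on expression, at 5 FPKM, 3 were lower. Dscc1 and Rad1, with means under 5 FPKM in every group, were then no longer tested.

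Most genes for proteins that work on the lagging strand with PCNA were lower in Ep2. Of 12 tested genes, 10 were lower and 1 higher in Ep2, with a median of -0.715. The polymerase delta subunits Pold2 (-1.36, limma adjusted p = 1.72e-06) and Pold1 (-1.22, limma adjusted p = 1.84e-06) and the single-strand binding protein Rpa1 (-0.70, limma adjusted p = 4.53e-06) had the smallest p-values. The small polymerase delta subunit Pold4 rose by 0.44 (limma, adjusted p = 0.00192), against the rest of its complex. In Ep1 Pold1 was the gene that passed, at -0.25 (limma, adjusted p = 0.0261), and it is named here after its value was seen. This call was lost without any 1 of the Ep1 libraries, without Ctrl replicate 1 or 2, with no filter, with length and GC correction, and with the replicate block (limma, adjusted p = 0.0508).

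Genes that modify PCNA on damaged templates were mostly without a call. Of 16 tested genes for PCNA ubiquitination and translesion synthesis, 2 were higher and 2 lower in Ep2, with a median of -0.0623. Usp1, which removes ubiquitin from PCNA, fell by 0.65 (limma, adjusted p = 9.03e-05), while the ubiquitin-conjugating enzymes Ube2b (0.34, limma adjusted p = 0.000228) and Ube2a (0.22, limma adjusted p = 0.00278) rose. After correction for length, 4 of the list were lower, and after correction for length and GC content 8. The CRL4-Cdt2 ubiquitin ligase uses chromatin-bound PCNA as a platform for degrading its substrates. Of its 9 genes, 3 were lower and 1 higher in Ep2, namely Cdt1 (-0.41, limma adjusted p = 0.000149), Dtl (-0.39, limma adjusted p = 0.000585), and Ddb1 (-0.17, limma adjusted p = 0.00586) against Tdg (0.14, limma adjusted p = 0.0461), shares close to or under those of all genes. The call of Tdg in Ep2 was lost without any 1 library other than Ctrl replicate 1, and without the filter on expression. In Ep1, 3 of the 9 were higher, Tdg (0.30), Cul4b (0.19), and Kmt5a (0.17), the last 2 named after their values were seen. The count was 1 without any 1 Ctrl library, without Ep1 replicate 1 or 2, or without Ep2 replicate 2, and 0 without Ep1 replicate 3.

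Mismatch repair proteins and chromatin factors also bind the ring. Of 8 mismatch repair genes, 6 were lower and 1 higher in Ep2, with a median of -0.342, among them the exonuclease Exo1 (-0.94, limma adjusted p = 6.72e-06), while Mlh3 rose by 0.38 (limma, adjusted p = 0.0118) from a mean of 0.853 FPKM. With the stricter filter Mlh3 was no longer tested, and the higher count was 0. Of 8 chromatin factors, 7 were lower and 1 higher, with a median of -0.544. The maintenance methylation factor Uhrf1 (-1.13, limma adjusted p = 2.02e-06) and the histone chaperone subunits Chaf1b (-1.05, limma adjusted p = 2.82e-06) and Chaf1a (-0.84, limma adjusted p = 6.98e-06) were lower, and the remodeller Ino80 was higher by 0.49 (limma, adjusted p = 0.00134). In Ep1 1 chromatin factor was higher, Ino80 (0.40), and 1 lower, Ehmt2 (-0.25), the latter named after its value was seen. Both calls were lost without any 1 of the Ep1 libraries and without Ctrl replicate 1 or 2, and the higher one also without Ctrl replicate 3.

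Lig1 was set beside the other DNA ligases. Of 8 ligases and partners, 5 were lower and 0 higher in Ep2, with a median of -0.417. The strand break sensor Parp1 fell by 0.86 (limma, adjusted p = 3.36e-06), Lig3, the ligase of single-strand break repair, by 0.48 (limma, adjusted p = 1.95e-05), and its scaffold Xrcc1 by 0.59 (limma, adjusted p = 0.000397). Lig4, the ligase of end joining, was named after its values were seen, and differed by 0.06 (limma, adjusted p = 0.451).

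Broader cell cycle lists moved in the same comparison. Of 41 S phase genes with the members left out, 40 were lower in Ep2 compared to Ctrl and 0 higher, with a median of -0.721, and the smallest adjusted p-values were those of the replicative helicase subunits Mcm2 (-0.95) and Mcm5 (-1.06) and of Uhrf1. Of 54 G2 and M phase genes, 51 were lower and 1 higher, with a median of -0.635, and the smallest adjusted p-values were those of Pimreg (-1.37), the proliferation marker Mki67 (-0.78), and Psrc1 (-1.38), while Gas2l3 rose by 0.26 (limma, adjusted p = 0.00259). In bulk RNA, fewer dividing cells and less of each mRNA per dividing cell cannot be told apart, and the part of the share of dividing cells in the change of the members was not tested. In Ep1, 2 S phase genes were higher and 0 lower, and 2 G2 and M phase genes were higher and 2 lower. The S phase count was 0 without any 1 Ctrl library or without Ep1 replicate 2 or 3, and 1 without Ep2 replicate 2. The G2 and M phase counts ranged with 1 library left out from 0 to 7 higher (0 without Ctrl replicate 1 or 2 or Ep1 replicate 1 or 3, 7 without Ep2 replicate 1) and from 0 to 3 lower (0 without those same 4 libraries).

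**Figure D4:**
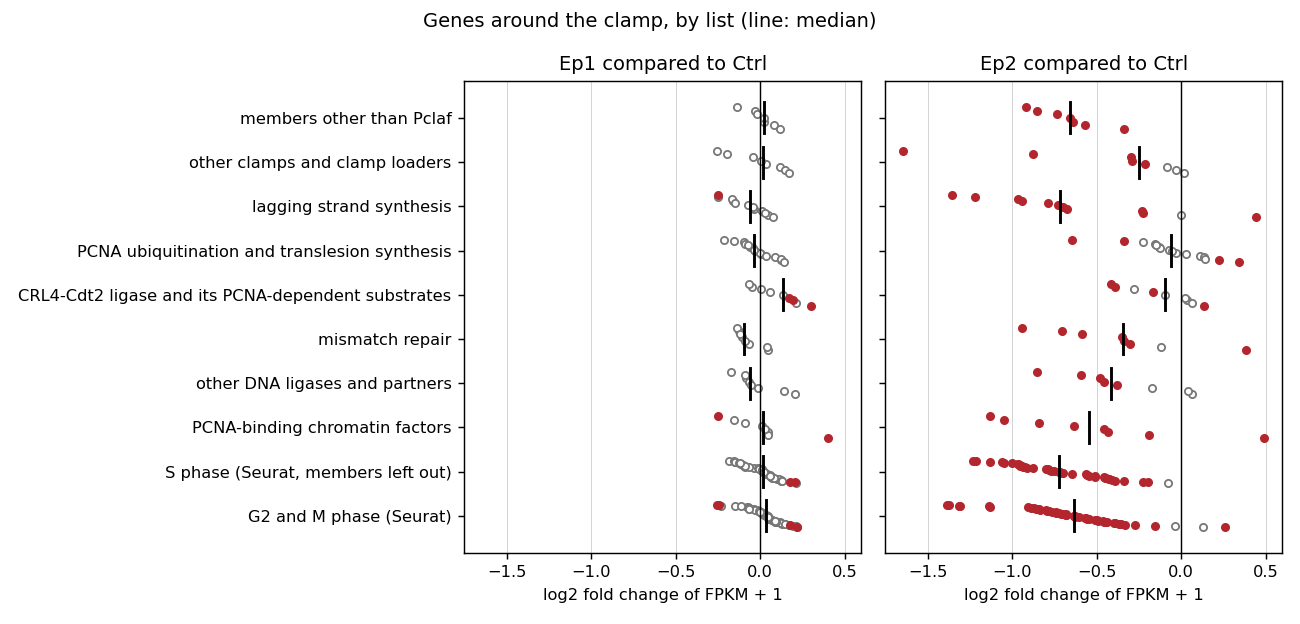
Log2 fold change of FPKM + 1 (x axis) of the 7 tested members and of the genes in each list (points), in Ep1 and in Ep2 compared to Ctrl; red points have an adjusted p-value below 0.05 (limma), open points do not, and the black line is the list median. In the Ep2 panel the medians run from -0.0623 for PCNA ubiquitination to -0.721 for S phase, with the members at -0.66, and in the Ep1 panel most points are open.

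The genes whose pattern was most like that of Pclaf over the 9 libraries were named by the Pearson correlation of log2(FPKM + 1), as a description, since all 9 libraries share the differences between the groups. For Pclaf these were Ppa1 (0.997), Kif23 (0.996), Mrto4 (0.995), Lyar (0.995), and Cip2a (0.995), and its correlation with Pcna was 0.997. For Pcna they were Gins1 (0.996), Mki67 (0.996), Rrm1 (0.994), Kif23 (0.994), and Drg1 (0.993). Ppa1 averaged 52.4, 56.8, and 34.3 FPKM in Ctrl, Ep1, and Ep2, the same order of groups as Pclaf. Kif23, a kinesin of the cytokinetic midzone, was in both groups of 5.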

How the data were processed

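RNA sequencing (paired-end, mouse cell line, 9 libraries in 3 groups of 3 by library name) was summarised by the authors as 1 deposited FPKM value per gene and library, normalised for gene length and library size. The submitters' processing notes name Bowtie 0.12.2 and mm8, the methods name GRCm39, and the deposited coordinates overlap GRCm38 for 99.9% of 20876 genes and GRCm39 for 16.4% of 20810. The counting tool and its use of strand are not given in the sources used here. The 9 single-library tables equal the joint table. FPKM multiplied by length gave whole fragments within 0.05 for 100% of the values. A count of 0 allows up to 3 fragments, which covers counting error only, and the spread between libraries sets the precision.

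Genes of at least 1 FPKM in at least 3 libraries (11727) were tested on log2(FPKM + 1) with limma (lmFit, eBayes with trend and robust), all 9 libraries in 1 model without covariates, with Benjamini-Hochberg adjustment over all tested genes within each comparison and a threshold of 0.05. The fold condition was an absolute log2 difference beyond 0.6. The procedure was tested on simulated data with equally many higher and lower genes, far fewer than were called in Ep2. That setting does not cover the dependence on scaling seen in Ep2.

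Members and lists were chosen with earlier results of these data known. The S phase and G2 and M phase lists are those of the Seurat package. Genes named are the members; for each list, up to 3 genes with the smallest adjusted p-value in Ep2 compared to Ctrl and the 1 called gene with the smallest adjusted p-value against the list median; the 5 genes most correlated with Pclaf and with Pcna; and markers. Other names are marked, and some genes that the rule names are not reported here. Alternatives were a pseudocount of 0.1, no filter, a filter at 5 FPKM, median centring, length correction, voom on recovered fragments (at least 10), a replicate block, a fit of the 2 groups alone, the fold condition, and omission of each library. The length and GC correction and the canonical transcript length were chosen after seeing the data. Promoter sequences are from RefSeq, and canonical lengths from GENCODE. Software was Python 3.11.15, numpy 2.4.6, pandas 2.3.3, matplotlib 3.10.9, R 4.3.3, and limma 3.58.1.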

Additional observations from a re-analysis of the deposited data

Results flagged for a closer look

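The tested members and all listed genes other than markers were searched for opposite changes at the 2 doses. Of these, Mcm4, Nasp, and Ect2 passed the test at both doses in opposite directions and also differed between the doses (limma, all 9 libraries). The share of all genes that meet this rule was not counted, so their number is not read as a result about the listed genes. The replication licensing subunit Mcm4 was higher in Ep1 by 0.18 (limma, adjusted p = 0.0218) and lower in Ep2 by -0.45, so that Ep2 compared to Ep1 was -0.63. The histone chaperone Nasp was higher in Ep1 by 0.21 (limma, adjusted p = 0.0413) and lower in Ep2 by -0.56, so that Ep2 compared to Ep1 was -0.77. Ect2, which acts at cytokinesis, was higher in Ep1 by 0.18 (limma, adjusted p = 0.0305) and lower in Ep2 by -0.46 (limma, adjusted p = 2.53e-05), so that Ep2 compared to Ep1 was -0.64. All 3 Ep1 calls were lost with no filter, with length and GC correction, and without Ctrl replicate 1 or 2 or Ep1 replicate 2 or 3. The calls of Mcm4 and Nasp were also lost without Ctrl replicate 3, that of Ect2 without Ep1 replicate 1, and that of Nasp without Ep2 replicate 2, with gene length correction, and with the replicate block. Both doses were compared to the same Ctrl libraries.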

How the results depend on the processing

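The 7 tested members stayed lower past the threshold in both Ep2 comparisons, and none passed in Ep1, under each of the 18 refitted alternatives, 9 of which left out 1 library. Under the fold condition the counts were 5 and 6. Pclaf ranged from -1.14 to -0.99 in Ep2 and from 0.13 to 0.27 in Ep1 compared to Ctrl, and Pcna in Ep1 from 0.03 to 0.11 (limma, adjusted p 0.0613 to 0.546). Signs turned in Ep1 compared to Ctrl for members that never passed: Rfc1 was -0.0313 with length and GC correction, and Rfc4 was 0.0228 with gene length correction. With 1 library left out, Rfc3 ranged from -0.0677 to 0.0135 (highest without Ctrl replicate 3), Rfc4 from -0.0669 to 0.0285 (highest without Ep1 replicate 1), and Lig1 from -0.0056 to 0.0409 (lowest without Ctrl replicate 3). The cause was not tested. Same-numbered libraries did not deviate together (correlations -0.06 to 0.07 in 9 pairs, 4 of 18 best matches with the same number). With a replicate block 7 members were again lower in both Ep2 comparisons, and Ep1 calls over all genes went from 741 higher and 583 lower to 582 and 469. Those Ep1 calls were 242 and 154 with no filter. Of the counts over the lists under alternatives, 856 were unchanged or stayed within 1.5 times, and 116 did not, 80 of them in Ep1. The 856 include counts of 0 that stayed at 0. With voom on recovered fragments, 3103 genes were higher and 2776 lower in Ep2 compared to Ep1 (52.8% higher).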
